A study of Mus musculus with 27 samples.

Results

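The retinas of mice carrying both mutations of a Gne and C3 cross were compared with those of wildtype mice. The double mutants had 1 intact copy of Gne and none of C3 (Gne+/- C3-/-, 6 mice), and the wildtype mice had both copies of each gene (Gne+/+ C3+/+, 7 mice). These 13 libraries, of 27 in the series, were chosen by the genotype in their labels, and every mouse was 9 months old. The other libraries came from 7 Gne+/- C3+/+ mice (Gne+/-) and 7 Gne+/+ C3-/- mice (C3-/-), which are used here only to estimate the spread and to set the double mutant beside each single mutant. By its design text, the study asks what lowered sialylation does to the retina of middle-aged mice and whether complement carries that effect. Each library was made from RNA of whole retina with a 3′ mRNA kit, and by the labels no mouse gave more than 1 library.

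The product of Gne catalyses the first steps by which cells make sialic acid. Sialic acids cap the sugar chains of cell surfaces, where they are read by inhibitory receptors of microglia and by regulators of complement. C3 is the protein on which the routes of complement activation converge, and its fragments tag material for uptake by phagocytes. In the retina, microglia use this tag when they remove synapses and debris.

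Total counts lay between 17.7 and 22.6 M in wildtype and between 14.2 and 22.8 M in double mutant libraries. Sequencing run 1 held 5 wildtype and 4 double mutant libraries, run 2 held 2 of each, and the run was a covariate in the model. The labelled tissue was checked against rod photoreceptor genes, which define the retina: 25 rod phototransduction genes summed to a median of 100430 CPM (counts scaled to a common library size) in wildtype and 83829 CPM in double mutants. The ranges overlapped, 45429 to 107494 CPM and 41615 to 108914 CPM, and the medians pool both runs. Single rod genes differed between runs in both directions. In wildtype, Gnb1 measured 15998 to 24531 CPM in run 1 and 2974 and 2840 CPM in run 2. Gngt1 measured 1.08 to 104 CPM in run 1 and 1238 and 1212 CPM in run 2. RNA of the lens, which lies against the retina in the eye, was uneven. The summed level of 17 lens genes had a median of 4.78 CPM in wildtype (1.19 to 173) and 38.8 CPM in double mutants (3.82 to 171), and it exceeded 50 CPM in 1 of 7 and 3 of 6 libraries. The defining lens genes Cryaa and Cryba1 were at 0 in every library, but other annotated genes cover their whole span, where reads were not assigned. The mean of 4 Y-linked genes exceeded 10 CPM in 0 of 5 wildtype and 2 of 4 double mutant libraries of run 1, and in 2 of 2 of both groups in run 2. The labels do not give the sex. The part of lens RNA and of sex in the results was not tested beyond the counts below.

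Of 17409 genes tested, 27 (0.155%) passed the threshold of 0.05 in double mutant against wildtype retina by edgeR's quasi-likelihood test with Benjamini-Hochberg adjustment. Of these, 13 were higher (0.0747%) and 14 lower (0.0804%) in the double mutants. They comprised the targeted genes Gne and C3, 3 processed pseudogenes and 4 transcripts with provisional symbols, which are counted here and not described. The other named genes included Heatr5a, Ints4, Rab6a, the cone gene Pde6c and the ribosomal protein gene Rps15a on the higher side. On the lower side stood Slc4a8, Xxylt1, Akap6, Sp1 and Cd47. Before adjustment 863 genes (4.96%) had p under 0.05, 432 higher and 431 lower. DESeq2 called 56 genes (0.322%) and limma-voom 47 (0.27%), and among them were 27 and 26 of the 27. With no term for the run, edgeR called 13 genes, and without the 4 libraries above 50 CPM of lens genes it called 10, 4 higher and 6 lower, all among the 27. The named ones of these 10 were Gne, C3, Heatr5a, Trim12a, Slc4a8, Olfr607 and the pseudogenes Rps13-ps1, Rps13-ps2 and Mrpl48-ps. Of the genes that lost their call without these libraries, Pde6c then stood at 0.61 and Cd47 at -0.65 on the log2 scale. The count of lower genes was 8 without double mutant mouse 3 and 8 without mouse 4.

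Gne and C3 followed the labels in every library. Gne (ENSMUSG00000028479, chromosome 4, 44034075 to 44084177, GRCm38) ranged from 99.2 to 162 CPM in wildtype and from 32 to 44 CPM in double mutants of run 1. In run 2 the wildtype mice measured 47.0 and 55.5 CPM and the double mutants 13 and 14.1 CPM. The groups did not overlap inside either run, and the level of both groups was lower in run 2. In the model Gne fell by 1.77 log2 units, so that the double mutants kept 29.3% of the wildtype level (SE 0.139, edgeR adjusted p = 4.12e-10, 6 against 7 mice). Without the run term its adjusted p was 0.166.

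C3 (ENSMUSG00000024164, chromosome 17, 57203970 to 57228136) ranged from 53.9 to 216 CPM over the 7 wildtype libraries and from 0 to 1.83 CPM over the 6 double mutant ones. It fell by 7.28 log2 units (SE 0.673, edgeR adjusted p = 5.7e-07), with 17940 counts in wildtype and 85 in double mutant libraries. What part of each gene was deleted is not used here, and transcripts that keep their 3′ end would still be counted.

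**Figure D1:**
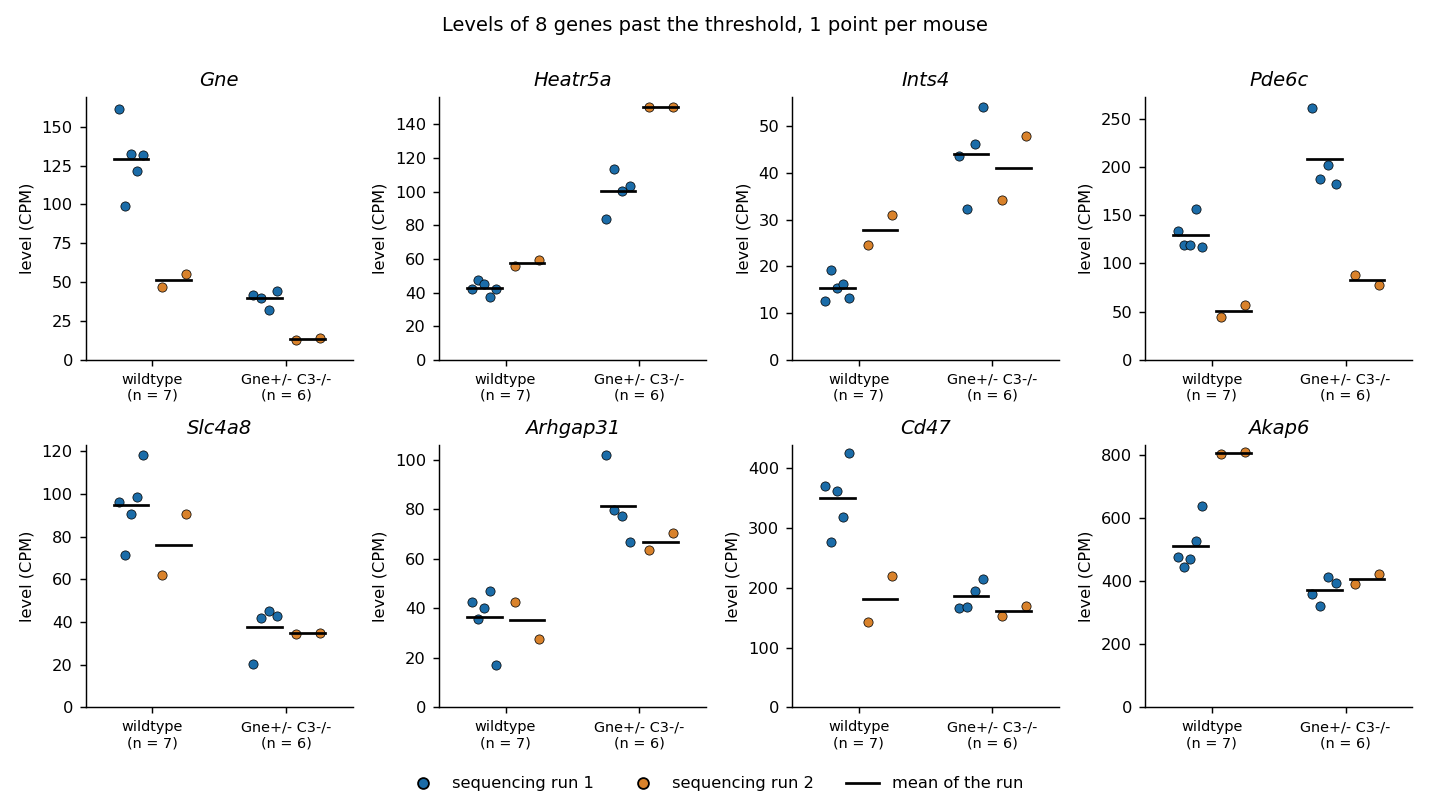
Levels of 8 genes past the threshold, in CPM on linear axes starting at 0, for 7 wildtype and 6 Gne+/- C3-/- mice (1 point per mouse, coloured by sequencing run; bars are the mean of each run). The groups separate inside both runs for 7 of the 8 genes; for Cd47 the run 2 mice overlap.

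Among the protein-coding genes that rose, Heatr5a, which encodes a large HEAT-repeat protein, had the smallest p. It measured 42.4, 47.8, 45.4, 37.4 and 42.2 CPM in the wildtype mice of run 1, and 56.0 and 59.5 CPM in those of run 2. The double mutants measured 83.8, 113, 100 and 103 CPM in run 1 and 150 CPM in both mice of run 2. Every double mutant lay above every wildtype mouse. Heatr5a rose by 1.27 (SE 0.127, adjusted p = 7.11e-08, edgeR), 2.41-fold, with 1.23 in run 1 alone and 1.39 in run 2 alone. It lies on chromosome 12 (51875871 to 51971321).

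Ints4, a subunit of the Integrator complex that processes small nuclear RNAs, ranged from 12.6 to 31.1 CPM (median 16.2) in wildtype and from 32.3 to 54.1 CPM in double mutants. The groups did not overlap, and Ints4 rose by 1.21 (SE 0.200, adjusted p = 0.00126, edgeR), with 1.53 in run 1 alone and 0.57 in run 2 alone. Arhgap31, a GTPase-activating protein, went from 36.1 ± 10.4 CPM (SD, n = 7) to 76.7 ± 13.8 CPM (n = 6), a rise of 1.09 with no overlap. Rab6a, which directs vesicle traffic at the Golgi, rose by 0.85, and its groups overlapped over both runs together but not inside either run: 151 to 234 against 312 to 467 CPM in run 1, and 115 and 177 against 187 and 221 CPM in run 2. In each run alone Rab6a stood at 1.03 and 0.50. Rab6a shares 17.7% of its 50-base stretches with Mrpl48, a gene described below, so its value is uncertain. Myg1, an exonuclease gene, rose by 1.19, from 16.1 ± 6.58 to 34.6 ± 5.57 CPM. Cers5, which makes ceramides, rose by 0.86, from 65.6 ± 29.7 to 110 ± 36.6 CPM. Its groups overlapped over both runs together but not inside either run. Myg1 and Cers5 kept their call in all 13 fits that leave out 1 library. In the 13 libraries alone neither passed (edgeR adjusted p 0.0748 for Myg1 and 0.0905 for Cers5). Both also lost their call in run 1 alone (0.239 and 0.280) and with no run term.

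Pde6c encodes the catalytic subunit of the cone phosphodiesterase, which breaks down cGMP when the cone absorbs light. It measured 134, 119, 119, 157 and 117 CPM in wildtype and 262, 187, 202 and 182 CPM in double mutant mice of run 1. In run 2 the values were 44.8 and 56.6 against 87.6 and 77.4 CPM. Inside each run every double mutant was above every wildtype mouse. Pde6c rose by 0.70 (SE 0.151, adjusted p = 0.04, edgeR), 1.62-fold, by nearly the same amount in run 1 alone (0.70) and run 2 alone (0.71). Its call stood in 3 of the 13 fits that leave out 1 library. It was lost without wildtype mouse 1, 2, 4, 6 or 7 or without double mutant mouse 3, 4, 5, 7 or 8, with adjusted p from 0.0542 to 0.151.

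Larger rises were measured for Rps15a, Pot1b, Rec8 and Trim12a. Rps15a, a protein of the small ribosomal subunit, ranged from 4.87 to 12.0 CPM in wildtype and from 212 to 449 CPM in double mutants of run 1. In run 2 the groups were closer together, with means of 51.5 and 156 CPM and no overlap. Rps15a rose by 4.18 (SE 0.687, adjusted p = 0.00417, edgeR), with 5.38 in run 1 alone and 1.61 in run 2 alone. Several processed copies of Rps15a are annotated, so its counts could be split by how reads were placed, and its value is uncertain. Pot1b, a telomere-binding protein, rose by 2.81, from 3.29 ± 2.91 to 18.7 ± 7.34 CPM, with no overlap between the groups. It stood at 3.18 in run 1 alone and 1.86 in run 2 alone.

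Rec8, a cohesin subunit known from meiosis, ranged from 0 to 1.90 CPM in wildtype and from 5.81 to 10.7 CPM in double mutants. It rose by 4.99 (SE 1.06, adjusted p = 0.04, edgeR), a call that stood in 3 of the 13 fits leaving out 1 library. It stood at 6.49 in run 1 alone and 2.54 in run 2 alone. The call was lost without wildtype mouse 1, 2, 4, 5, 6 or 8 or double mutant mouse 3, 4, 5 or 6, with adjusted p from 0.0655 to 0.119. Trim12a, of a family of antiviral TRIM proteins, had 1 count in all wildtype libraries and 462 counts in the double mutants, 2.37 to 7.21 CPM. The ratio of CPM was 626 (exact 95% interval 112 to 24786, counting error only). Trim12a shares 5.04% of its 50-base stretches with Trim5, at 0 CPM in all wildtype and up to 3.64 CPM in double mutant libraries, so the values of both are uncertain.

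Among the genes that fell, Slc4a8, a sodium-driven exchanger of chloride and bicarbonate, ranged from 62.2 to 118 CPM (median 90.6) in wildtype and from 20.2 to 45.0 CPM in double mutants. The groups did not overlap. Slc4a8 fell by 1.28 (SE 0.175, adjusted p = 4.16e-05, edgeR), to 41.1% of its wildtype level, with a fall of 1.33 in run 1 alone and of 1.13 in run 2 alone. Xxylt1, a xylosyltransferase that extends sugar chains on Notch-type repeats, fell by 1.54, from 27.7 ± 11.9 to 10.9 ± 7.10 CPM. The fall was 1.87 in run 1 alone and 0.87 in run 2 alone. In the 13 libraries alone the edgeR adjusted p of Xxylt1 was 0.0996. Olfr607, annotated as an olfactory receptor, had 419 counts in wildtype (0.224 to 7.53 CPM) and 0 in all 6 double mutants. Against a floor of 3 counts over the group it was at least 103-fold lower.

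Cd47, a surface protein that tells phagocytes not to engulf the cell, ranged from 276 to 425 CPM in wildtype and from 165 to 214 CPM in double mutants of run 1. In run 2 the wildtype mice measured 143 and 220 CPM and the double mutants 152 and 169 CPM, so that they overlapped. Cd47 fell by 0.69 over both runs (SE 0.152, adjusted p = 0.0421, edgeR), by 0.91 in run 1 alone and by 0.16 in run 2 alone. It kept its call in 3 of the 13 fits that leave out 1 library, and the adjusted p in the 10 others was 0.0679 to 0.176. It was kept without wildtype mouse 2 or 7 or double mutant mouse 8. With the Y-linked level as a covariate its adjusted p was 0.129, as was that of Pde6c.

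Akap6, a scaffold that anchors protein kinase A, ranged from 444 to 809 CPM (median 529) in wildtype and from 323 to 423 CPM in double mutants. Every double mutant lay below every wildtype mouse. It fell by 0.62 (SE 0.132, adjusted p = 0.0372, edgeR), by 0.45 in run 1 alone and by 0.97 in run 2 alone, and kept its call in 5 of the 13 such fits, those without wildtype mouse 1, 2 or 4 or double mutant mouse 5 or 6. Sp1, a general transcription factor, fell by 0.99 (SE 0.206, adjusted p = 0.0265, edgeR), and kept its call in 7 of 13. In run 1 it ranged from 24.9 to 35.4 CPM in wildtype and from 9.88 to 17.2 CPM in double mutants, and in run 2 it measured 145 and 100 against 74.7 and 74.6 CPM. Sp1 was lost without wildtype mouse 1, 6 or 7 or double mutant mouse 3, 4 or 6 (adjusted p 0.0587 to 0.117) and with the Y-linked level as a covariate (adjusted p = 0.0707), and limma-voom did not call it.

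After Gne, the smallest p belonged to 2 processed copies of Rps13, a gene for another protein of the small ribosomal subunit. Over its 453 coding bases the copy Rps13-ps2 (chromosome 7, 88530446 to 88530898) is identical to Rps13 (chromosome 7, 116331505 to 116334195). The copy Rps13-ps1 (chromosome 8, 87047689 to 87048226) differs at 2 bases, T411C and A429G, counted from the first coding base with the base of Rps13 first. The stretch from base 391 to base 453 is shown for the 3 genes because it holds both differences, in capitals in Rps13-ps1 (GENCODE transcripts, GRCm38, sense strand):
Rps13: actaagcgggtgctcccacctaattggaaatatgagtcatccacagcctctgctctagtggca
Rps13-ps2: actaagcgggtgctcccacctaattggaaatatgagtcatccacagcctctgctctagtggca
Rps13-ps1: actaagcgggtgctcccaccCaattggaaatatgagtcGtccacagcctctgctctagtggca

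Rps13-ps1 measured 232 to 401 CPM in wildtype and 3.15 to 6.07 CPM in double mutants of run 1, and 115 and 147 against 0.591 and 0.897 CPM in run 2. It fell by 6.35 (SE 0.431, adjusted p = 1.43e-09, edgeR). Rps13-ps2 moved the other way, from 5 counts in all wildtype libraries to 899 in the double mutants, a rise of 7.69 (SE 0.677, adjusted p = 3.41e-09, edgeR). The double mutants averaged 13.7 CPM in run 1 and 1.28 CPM in run 2. In run 2 alone the rise was 5.59 (edgeR adjusted p = 0.777). In the 13 libraries alone Rps13-ps2 did not pass the low-count filter and was not tested. The parent gene Rps13 measured 0 to 9.56 CPM in run 1 and 94.8 and 79.9 CPM in run 2 in wildtype, and 201 to 417 CPM in the double mutants. Its log2 fold change of 4.73 had an adjusted p of 0.108 by edgeR and 0.000357 by DESeq2. The sum of the 3 was 273 ± 66.0 CPM in wildtype (SD, n = 7) and 304 ± 95.2 CPM in double mutants (n = 6), a difference smaller than either SD. The single copies are near-identical, so reads could be placed on any of them and the value of each copy alone is uncertain.

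**Figure D2:**
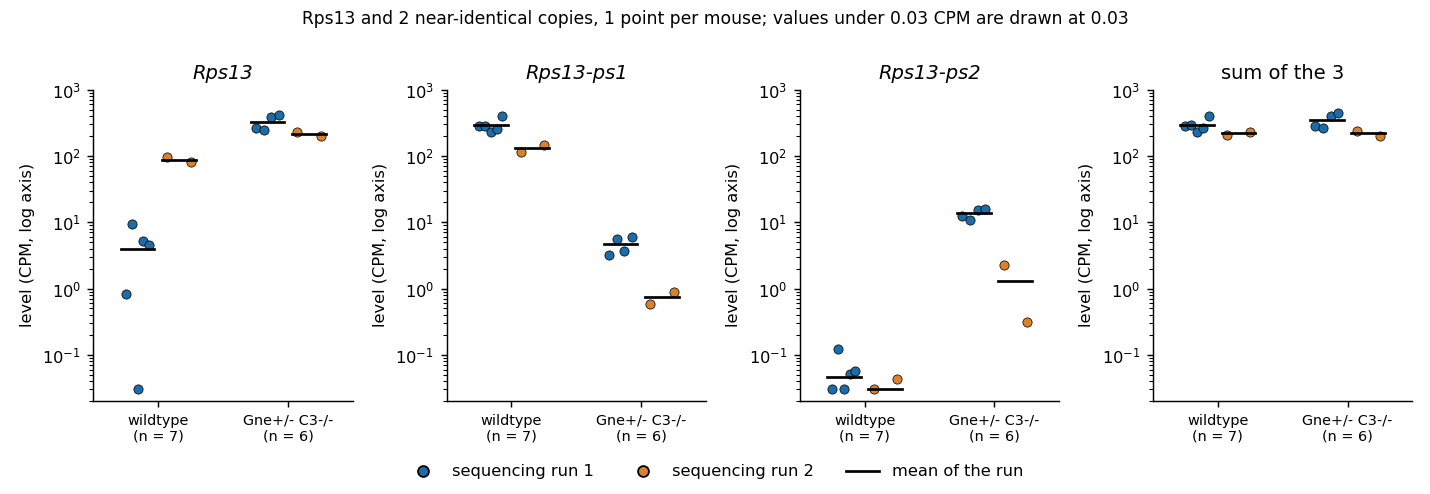
Levels of Rps13, Rps13-ps1, Rps13-ps2 and their sum on log axes, in CPM, for 7 wildtype and 6 Gne+/- C3-/- mice (1 point per mouse, coloured by run; bars are run means; values under 0.03 CPM are drawn at 0.03). The single copies separate the groups by up to several orders of magnitude, while the sums overlap.

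The third pseudogene, Mrpl48-ps, shares 44.6% of its 50-base stretches with Mrpl48, a protein gene of the mitochondrial ribosome. It had 491 counts in wildtype and 1 in the double mutants, a ratio of 362 (exact 95% interval 64.7 to 14337, counting error only). Wildtype mouse 7 was at 0, so the groups touched in run 2. Mrpl48 itself stood at 0.80 (SE 0.201, edgeR adjusted p = 0.162; DESeq2 adjusted p = 0.0327), from 17.3 ± 10.4 to 31.2 ± 15 CPM. Because reads could be placed on either, both values are uncertain. Mrpl48 also shares stretches with Rab6a.

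The genes past the threshold lay on 9 chromosomes. Chromosomes 7, 12, 15, 16 and 17 held 22 of the 27 genes and 23.2% of the tested genes. They were singled out because such genes lay there, so the comparison is no test, and chromosome 4 also held 2. Chromosome 7 alone held 10, between 84528954 and 118116188, a span of 33.6 Mb with 229 tested genes. Those named are Rps13-ps2, Ints4 (97480956 to 97541395), Rab6a (100607410 to 100641268), Olfr607 (103455526 to 103464151), Trim12a (104299894 to 104315466) and Rps15a (118104372 to 118116188). On chromosome 15, Cers5 (99734881 to 99772885), Slc4a8 (100761747 to 100823968), Myg1 (102331709 to 102338139) and Sp1 (102406143 to 102436404) lay within 2.7 Mb, which held 54 tested genes.

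Among the genes on chromosome 16 were Xxylt1 (30955144 to 31081432), Arhgap31 (38598340 to 38713274) and Cd47 (49800533 to 49915010). Akap6 (chromosome 12, 52699383 to 53155599) lay beside Heatr5a, the pair spanning 1.28 Mb with 9 tested genes. Pot1b (chromosome 17, 55651951 to 55712628) lay beside C3, within 1.58 Mb and 55 tested genes. Mrpl48-ps (88599175 to 88599810) was the other gene on chromosome 4 with Gne, 44.6 Mb across, and Rps13-ps1, Rec8 (chromosome 14, 55618037 to 55625395) and Pde6c (chromosome 19, 38132781 to 38183958) were the only ones on theirs. Each of chromosomes 7, 12, 15, 16 and 17 held both genes that rose and genes that fell. Loss of C3 and any stretches of another strain's genome that came with the C3 deletion cannot be told apart in this design.

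The groups did not overlap inside either run, in the same direction, for 25 of the 27 genes, against 0.609% of all tested genes, the exceptions being Mrpl48-ps and Cd47 in run 2. Over the 13 libraries together they did not overlap for 19, against 0.241%. The same libraries chose the genes, so these counts describe them and are no further test. Fitted in each run alone, all 27 kept their sign, which their choice from both runs together favours, so this is no further test either. Over all genes tested, edgeR called 28 in run 1 alone and 15 in run 2 alone. Not all of the 27 were among these: in run 2 alone the edgeR adjusted p was 0.497 for C3 and 0.891 for Cd47.

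**Figure D3:**
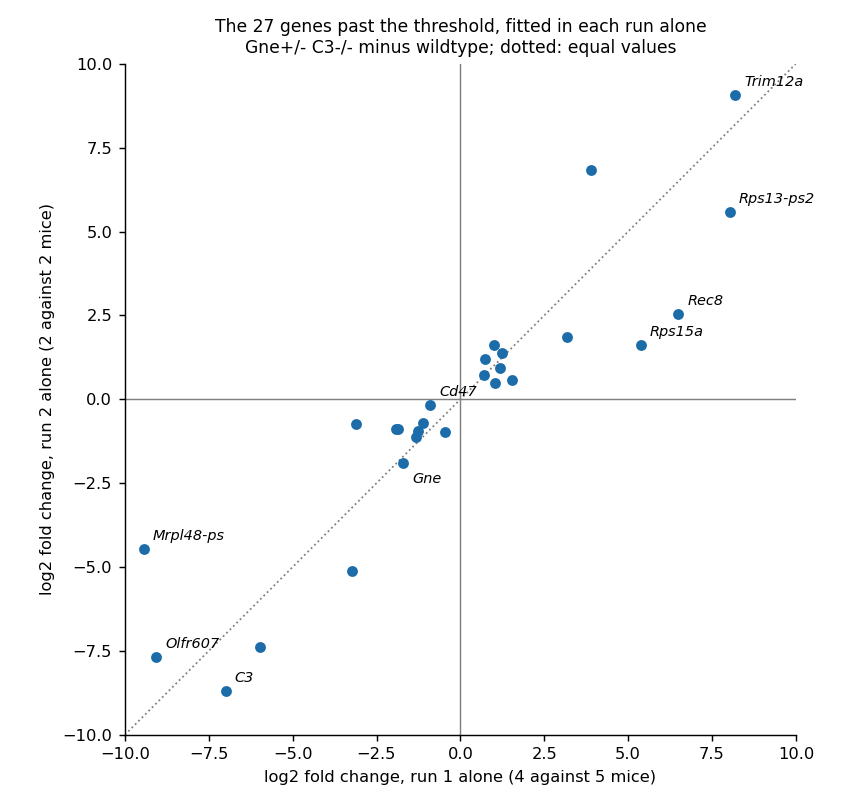
Log2 fold changes (Gne+/- C3-/- minus wildtype) of the 27 genes past the threshold, fitted in sequencing run 1 alone (horizontal, 4 against 5 mice) and in run 2 alone (vertical, 2 against 2 mice). All points lie in the quadrants of equal sign; Rps15a (5.38 and 1.61) and Cd47 (-0.91 and -0.16) were smaller in run 2.

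Each gene was also set beside the single mutants. The differences from wildtype share the wildtype libraries, so the double mutant was tested against each single mutant directly. Against C3-/- mice, edgeR called 1 of 17409 genes (0.00574%), Gne, at -1.62 (SE 0.138, adjusted p = 4.46e-09), and 235 genes had an unadjusted p under 0.05. None of the 25 other genes with counts in either group was among the 235, and their differences lay between -1.16 and 0.51. With 235 of 17409 genes at that level, finding none among 25 says little by itself. For 15 of the 25 the 95% interval of the difference lay within 1 log2 unit of 0, and for the other 10 it reached further. Olfr607 was at 0 in both groups.

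Named values side by side were as follows. Heatr5a stood at 1.27 in double mutants and 1.27 in C3-/- mice against wildtype, and at 0.09 in Gne+/- mice. For Slc4a8 the values were -1.28, -1.22 and -0.17. Pde6c stood at 0.70, 0.57 and -0.03, where the C3-/- value had an adjusted p of 0.143, and the double mutant differed from C3-/- by 0.12 (95% interval -0.18 to 0.43). Cd47 stood at -0.69, -0.51 and 0.00, where the C3-/- value had an adjusted p of 0.301, and the difference was -0.18 (95% interval -0.49 to 0.12). For Gne the values were -1.77, -0.15 and -1.54.

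Against Gne+/- mice, edgeR called 33 genes (0.19%), and 21 of the 27 were among them. The 6 that were not were Gne (-0.23, adjusted p = 0.815), Myg1 (0.78, 0.237), Akap6 (-0.55, 0.0835), Rec8 (4.42, 0.0734) and 2 provisional transcripts. Whether the double mutant departs from the sum of the single mutants was tested as an interaction. EdgeR called 0 genes (0%), with 554 of 17409 at an unadjusted p under 0.05, none of them among the 27. At that share few of 27 genes would be among them by chance, so their absence says little.

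**Figure D4:**
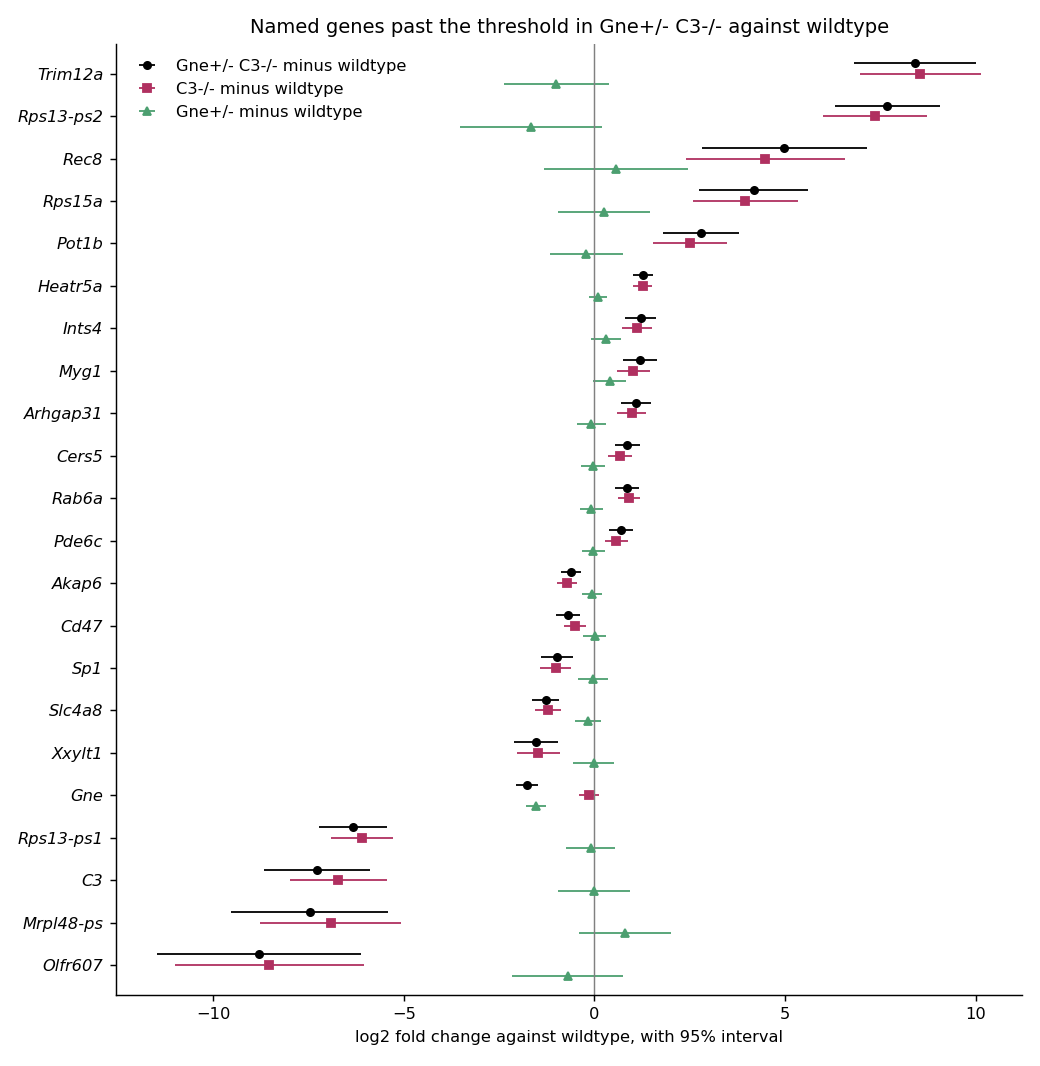
Log2 fold changes against wildtype with 95% intervals for 22 named genes past the threshold, in Gne+/- C3-/- (black circles), C3-/- (red squares) and Gne+/- mice (green triangles). The 3 sets share the 7 wildtype libraries. Circles and squares lie close together except for Gne, where the circle (-1.77) lies near the triangle (-1.54).

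Gene lists for retinal cells, immunity and neighbouring tissues were read against the whole table, where the median log2 fold change was -0.01 and 48.2% of genes were positive. Of 402 tested members of 37 lists, 4 passed the edgeR threshold, Gne, C3, Pde6c and Cd47, against 0.155% of all genes. An unadjusted p under 0.05 was found for 32 of the 402, against 4.96% of all genes. Gne and C3 are the targeted genes, and the lists were chosen with earlier results known, so these counts are no test. In 33 lists no member passed by edgeR, DESeq2 or limma-voom. In such bulk RNA, fewer cells of a type and less RNA per cell cannot be told apart.

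**Figure D5:**
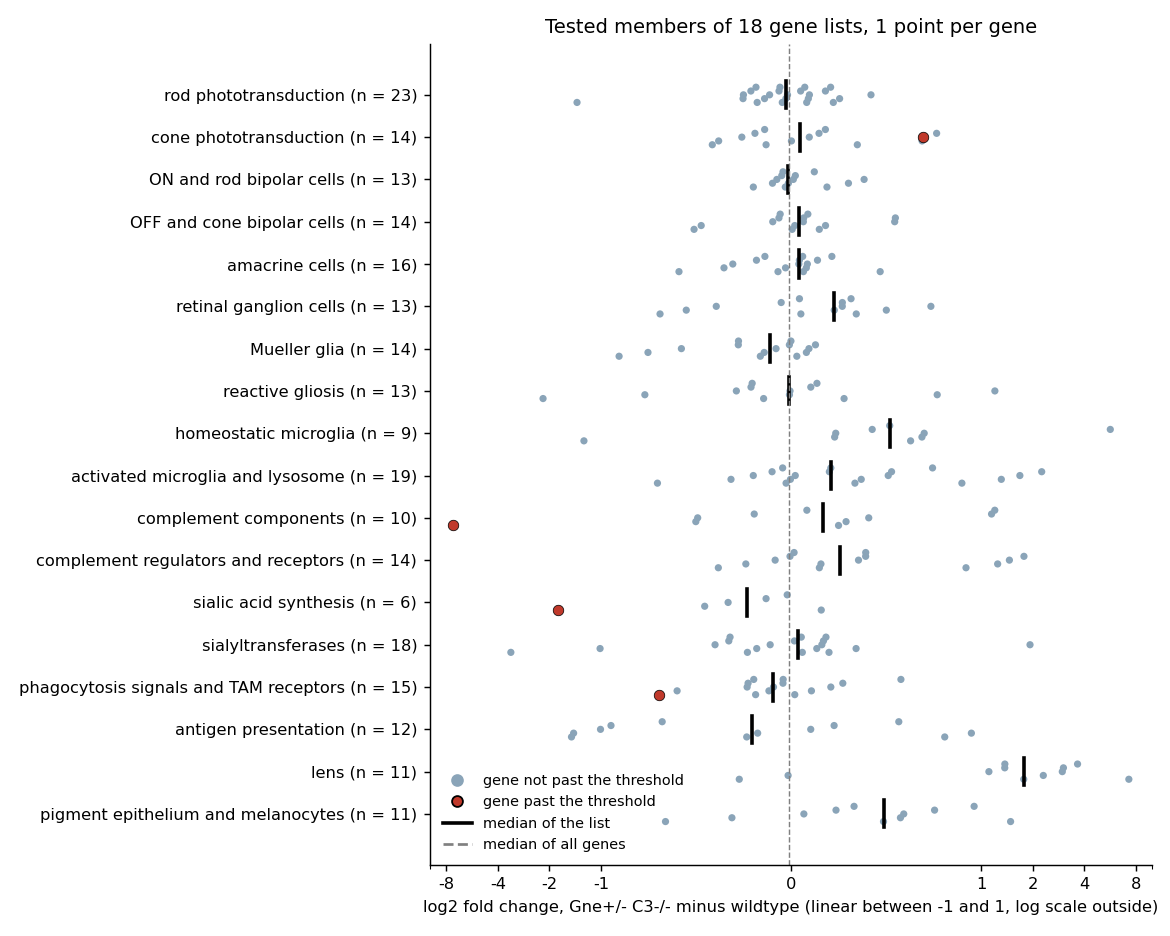
Log2 fold changes (Gne+/- C3-/- minus wildtype) of the tested members of 18 gene lists, 1 point per gene, with the list median as a black bar and the median of all genes as a dashed line (axis linear between -1 and 1, logarithmic outside). Genes past the threshold are red: Pde6c, C3, Gne and Cd47; the lens median of 1.77 lies furthest from 0.

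Photoreceptor lists lay near 0. Of 23 rod phototransduction genes 10 were positive (median -0.03). Of 14 cone genes 8 were positive (median 0.05), with Pde6c as the only one past the threshold. The cone arrestin gene Arr3 stood at 0.35 (SE 0.140, edgeR adjusted p = 0.857) and the cone channel subunit Cngb3 at -0.41 (SE 0.175, adjusted p = 0.878), while the short-wavelength cone pigment Opn1sw stood at -0.13 (SE 0.140). The cone list thus held members on both sides of 0 beyond an unadjusted p of 0.05.

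Bipolar, amacrine and ganglion cell lists had no member past the threshold. In ON and rod bipolar cells 6 of 13 genes were positive (median -0.01), with the kinase Prkca at 0.19 (SE 0.127), the channel Trpm1 at 0.01 (SE 0.149) and the glutamate receptor Grm6 at 0.12 (SE 0.155). In OFF and cone bipolar cells 9 of 14 were positive (median 0.04), with Grik1 at 0.02 (SE 0.137) and Scgn at -0.06 (SE 0.134). The 95% intervals ran from -0.07 to 0.45 for Prkca, from -0.29 to 0.32 for Trpm1 and from -0.26 to 0.30 for Grik1. In ganglion cells 9 of 13 were positive (median 0.23), among them the neurofilament gene Nefh (0.74, SE 0.189, edgeR adjusted p = 0.175) and the transcription factor gene Pou4f1 (0.50, SE 0.158, adjusted p = 0.447). The other 4 were negative, down to -0.69.

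Glial genes did not pass either. Of 14 Mueller glia genes 4 were positive (median -0.11), with Hes1, an effector of Notch signalling, at -0.90 (SE 0.307, edgeR adjusted p = 0.587) and the water channel Aqp4 at -0.58 (SE 0.235, adjusted p = 0.857). Glul, the glutamine synthetase of these cells, stood at -0.01 (SE 0.125). In the reactive gliosis list 5 of 13 were positive (median -0.01). Gfap stood at 0.10 (SE 0.405), from 5.53 ± 3.23 to 6.19 ± 3.45 CPM, and the acute-phase gene Serpina3n at -2.18 (SE 0.842, adjusted p = 0.838), from 21.7 ± 17.6 to 4.33 ± 5.40 CPM.

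Microglial genes were low in these libraries. The 12 genes of the homeostatic list summed to a median of 30.5 CPM in wildtype (24.2 to 50.1) and 41.3 CPM in double mutants (31.9 to 55.3), and 3 of them, P2ry12, Gpr34 and P2ry13, were at 0 in all libraries because other genes cover their span. Of the 9 tested, 8 were positive (median 0.52) and none passed the threshold by edgeR, DESeq2 or limma-voom, with 1 at an unadjusted p under 0.05. Cx3cr1, the fractalkine receptor, stood at 0.52 (SE 0.307), Tmem119 at 0.70 (SE 0.678) and Aif1 at 0.63 (SE 1.22). Siglech, the 1 negative gene, stood at -1.26 (SE 0.771). Of 19 genes of activated microglia and lysosomes 12 were positive (median 0.21), with Trem2 at 2.25 (SE 1.11, adjusted p = 1), from 0.312 ± 0.395 to 1.49 ± 0.970 CPM, and Cd68 at 1.68 (SE 1.04), from 0.493 ± 0.443 to 1.81 ± 0.946 CPM. These were the largest rises of that list, and its other 7 genes were negative, down to -0.70.

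Complement genes other than C3 did not pass. C1qa, C1qb and C1qc, which form the complex that opens the classical route, stood at 0.08 (SE 0.367), -0.49 (SE 0.760) and 0.25 (SE 0.416), each at 2.47 to 6.76 CPM on average. C4b stood at -0.50 (SE 0.638). The receptor C3ar1, which binds a C3 fragment, stood at 0.35 (SE 0.729). Of 14 complement regulators and receptors 10 were positive (median 0.26), with 0 past the threshold by edgeR, DESeq2 or limma-voom and 0 at an unadjusted p under 0.05.

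In the sialic acid synthesis list Gne was the only one of 6 tested genes past the threshold, and 1 of the 6 was positive (median -0.23). The activating enzyme gene Cmas stood at -0.02 (SE 0.154, 95% interval -0.33 to 0.29), and the Golgi transporter gene Slc35a1 at -0.33 (SE 0.184). Nans and Nanp, the steps after Gne, were covered by other genes over 68.5% and 99.8% of their span and were not tested. Of 18 sialyltransferases 10 were positive (median 0.04) and 0 passed by edgeR, DESeq2 or limma-voom, with 1 at an unadjusted p under 0.05. St3gal5, which starts ganglioside synthesis, stood at -0.23 (SE 0.166), and the sialidase gene Neu1 at 0.10 (SE 0.218).

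Cd47 belongs to a list of 15 phagocytosis signals and TAM receptors, of which 5 were positive (median -0.09) and Cd47 alone passed. The TAM receptor Tyro3 stood at 0.58 (SE 0.282, edgeR adjusted p = 1) and its ligand Pros1 at -0.60 (SE 0.239, adjusted p = 0.838). In the antigen presentation list 5 of 12 were positive (median -0.20), with Tapbp at 0.81 (SE 0.210, adjusted p = 0.176) and Cd74 at -1.49 (SE 0.813). Of 13 clock genes 3 had an unadjusted p under 0.05, the core activator Arntl at -0.36 (SE 0.103, adjusted p = 0.307), Cry1 at 0.44 (SE 0.165) and Bhlhe41 at -0.46 (SE 0.217). None of these passed the threshold.

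Lists of other tissues and cells differed in the sign of their medians. Of 11 tested lens genes 9 were positive (median 1.77), with 4 at an unadjusted p under 0.05 and 0 past the threshold by edgeR, DESeq2 or limma-voom, and the crystallin Crybb1 at 3.02 (SE 1.10, edgeR adjusted p = 0.719). Of 11 genes of the pigment epithelium and melanocytes 9 were positive (median 0.49), among them Rpe65, the isomerase of the visual cycle, at 0.96 (SE 0.369, adjusted p = 0.789). Their summed level was 364 CPM at the median in wildtype (106 to 817) and 595 CPM in double mutants (117 to 810), with 1 of 12 members at 0 in both. All 7 tested genes of fibroblasts and sclera were positive (median 0.72), but the median was 0.70 in run 1 alone and -0.52 in run 2 alone. Of 4 erythrocyte genes 1 was positive (median -0.46). None of the 27 genes belongs to these lists.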

How the data were processed

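The series holds 3′ mRNA libraries from the retinas of 27 mice, each made from 100 ng of RNA, per the labels' protocols. The table deposited by the authors gives raw counts for 55487 genes, which they did not normalize. Alignment was with STAR 2.7.3a and counting with featureCounts; Subread 2.0.0 and the build GRCm38 (mm10) are also listed, per the submitters' processing notes. Ensembl 101 was the annotation and 2.0.3 the counter's version, per the file headers. Exons and whole genes were counted with strand ignored, and a read over several genes went to none of them, per the file headers. Accordingly, 1248 of 1248 protein-coding genes wholly covered by others were at 0, against 12.4% of 11795 not covered. Identifiers were given symbols for 55141 genes.

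Testing used edgeR 4.0.16 in R 4.3.3. Genes passed filterByExpr (minimum count 10), and TMM factors ran from 0.899 to 1.13. The robust quasi-likelihood fit over all 27 libraries had terms for the 4 genotype groups and the sequencing run (22 residual degrees of freedom, common biological coefficient of variation 55.1%). Standard errors come from the F statistic, adjusted p-values cover the 17409 genes tested, and CPM are scaled by TMM. Pseudogene copies were compared in GENCODE transcripts of GRCm38 by shared stretches of 50 bases. The fit was also run on simulated counts, and the outcome is not reported here.

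The text names Gne, C3, at most 12 genes per direction past the threshold in order of p (provisional symbols are only counted), at most 4 members per list in order of p, and set genes of complement, microglia, bipolar cells, photoreceptors, glia and sialic acid. Rps13, Mrpl48, Trim5 and Tmem181b-ps were added after their values were seen. Some genes that this rule names are not reported here. The members and lists were chosen with earlier results of these data known. Mice with the same number in both groups had correlations of -0.001 to 0.267, and those of run 2 are a single value. Only for mouse 6 was the wildtype mouse of the same number the closest match. Numbers were not treated as pairs, since the labels do not say that they mark pairs. Alternatives were DESeq2 1.42.0, limma-voom with quality weights (limma 3.58.1), RLE factors, no filter, over 1 CPM in at least 6 libraries, no robust estimation, no run term, the 13 libraries alone, each run alone, the mouse number as a block, the Y-linked level as a covariate, and each library left out. Leaving out libraries with lens genes above 50 CPM was chosen after seeing the data. No molecular identifiers are named in the sources used here, and PCR reads without them are not independent molecules, so counting intervals cover counting error only.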

Additional observations from a re-analysis of the deposited data

Results flagged for a closer look

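In 92 groups of values of named genes (log2 CPM adjusted for run), 13 had a lowest or highest mouse whose gap to its nearest neighbour exceeded Dixon's critical share of the group's range, 0.625 for 6 mice and 0.568 for 7. For normally spread values chance alone flags about 1 in 20 groups. Log values of low counts stretch downwards, and several flagged mice were at 0 CPM, so that rate may not hold here. In all 13 the mouse was the lowest of its group.

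Among the genes past the threshold, the share was 0.776 for Rps13-ps2 in double mutant mouse 8 (0.312 CPM) and 0.787 for Slc4a8 in double mutant mouse 3 (20.2 CPM). It was 0.706 for Sp1 in double mutant mouse 4 (9.88 CPM). In wildtype it was 0.771 for Mrpl48-ps in mouse 7 (0 CPM) and 0.622 for Olfr607 in mouse 1 (0.224 CPM).

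Among complement and microglial genes, double mutant mouse 3 stood low for C1qb (share 0.674, 0.0606 CPM) and Aif1 (0.816, 0 CPM). Double mutant mouse 7 stood low for C4b (0.650, 0 CPM) and C3ar1 (0.707, 1.83 CPM). Double mutant mouse 8 stood low for Cx3cr1 (0.640, 4.92 CPM), and wildtype mouse 4 for Tmem119 (0.680, 0 CPM). The glial gene Gfap was low in double mutant mouse 8 (0.698, 0.975 CPM), and the sialyltransferase gene St3gal5 in double mutant mouse 7 (0.658, 17 CPM).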

How the results depend on the processing

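Against 13 higher and 14 lower genes, DESeq2 called 26 and 30, limma-voom 27 higher, and edgeR without the low-count filter 69 and 49. Without the run term edgeR called 7 and 6, in the 13 libraries alone 9 lower, in run 2 alone 6 lower, and without the libraries rich in lens genes 4 and 6. Named genes that lost their call in the 13 libraries alone were Myg1, Cers5, Xxylt1, Akap6 and Cd47. Their edgeR adjusted p there was 0.0555 to 0.208, and Rps13-ps2 was not tested. Their calls thus needed the libraries of the single mutants in the fit. Leaving out each library in turn gave 11 to 13 higher and 8 to 14 lower genes, and 19 of the 27 kept their call in every such fit. With a replicate block (mouse number), which the data gave little ground to treat as a pairing, 5 genes were higher and 6 lower, 10 of them among the 27. All 27 kept their direction in every fit that tested them, but these fits reuse the libraries that chose the genes. The spread between mice limits genes under about 10 CPM, where standard errors often exceeded 0.4.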

Other observations

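Tmem181b-ps, a pseudogene on chromosome 17 (6438524 to 6467022), was singled out after its values were seen. It measured 43.5 to 68.4 CPM in wildtype mice of run 1 and 25.4 and 29.1 CPM in those of run 2. Of the double mutants, 5 of 6 lay between 0 and 0.0706 CPM, and mouse 8 measured 16.9 CPM. The group contrast was -4.88 on the log2 scale (SE 1.17, edgeR adjusted p = 0.163). The C3-/- mice averaged 0.0995 CPM. The double mutants were thus not uniform for this gene, in the way they were for C3, which lies on the same chromosome and was at 0 CPM in mouse 8.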
